A study of Mus musculus with 20 samples.

Results

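The 6 genes Nxpe4, Chst2, Atp2c1, Abhd14b, Crtap and Glb1 lie on mouse chromosome 9, spread from 48 Mb to near its far end in the mm10 genome. They were taken by symbol from the 24062 genes of the deposited expression table, and they were chosen by their difference between mThy1-α-synuclein and wild-type microglia in earlier results from the same mice. These genotype differences are therefore described below without a test. Microglial RNA was sequenced from 20 male mice with the B6D2F1/J background, a hybrid of the C57BL/6 and DBA/2 strains, of which 10 were 7 months old (6 mThy1-α-synuclein, 4 wild-type) and 10 were 10 months old (5 of each genotype). The transgenic mice carry full-length human wild-type α-synuclein on the X chromosome, driven by the murine Thy-1 promoter, which acts mainly in neurons, so the microglia come from brains in which other cells overexpress the protein. Wild-type mice were littermates without the transgene. Every library stands for a single brain, without pooling. The sample labels name IBA1 beads and the study's methods CD11b beads for the selection of microglia.

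Values are normalized counts, that is, reads counted on a gene divided by a size factor of the mouse, and the size factors were set separately at each age. Between 33404096 and 77806399 reads per mouse were counted on genes. Thy1 checked the genotype labels, with 392 to 1741 normalized counts in the 11 mThy1-α-synuclein mice and 9.41 to 47.6 in the 9 wild-type mice. None of the 12 microglia markers examined was at 0 in all mice. By the limma test described below, 1 was higher in mThy1-α-synuclein mice at 7 months (8.33%) and 4 at 10 months (33.3%). Over all tested genes the shares that were higher were 2.23% and 3.88%. Summed over 10 markers, neuronal transcripts were lower in mThy1-α-synuclein mice at 7 months (256 to 503 against 851 to 1581 normalized counts), where 6 of 10 passed the test in that direction against 2.7% of all tested genes, and overlapped at 10 months (343 to 679 against 295 to 636). Summed lymphocyte markers were lower in mThy1-α-synuclein mice at both ages, with 1040 to 1497 against 2134 to 2901 at 7 months and 880 to 1182 against 1331 to 2526 at 10 months. Oligodendrocyte markers (7991 to 10285 against 12881 to 18290) and brain endothelial and mural markers (3358 to 5159 against 5534 to 6651) summed lower at 7 months. Of 10 astrocyte markers 4 fell and 1 rose at 7 months (median log2 fold change -1.19), against 2.7% and 2.23% of all tested genes. Their sums overlapped there (9845 to 12542 against 9526 to 12358). At 10 months 1 of the 10 rose (10%, against 3.88% of all tested genes). At 10 months all 10 neutrophil and monocyte markers had negative log2 fold changes and 3 passed (30% against 3.79% of all tested genes). Their sums overlapped (75522 to 197342 against 160755 to 392821). Also at 10 months, 4 of 8 border macrophage markers fell (50%), with sums of 19568 to 25096 against 26491 to 36611. The part of these other cells in the results below was not tested, and in RNA from a whole selected fraction, fewer cells of a type and less RNA per cell cannot be told apart.

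The 6 proteins act in separate compartments of the cell. Chst2 and Atp2c1 work in the Golgi apparatus, where Chst2 transfers sulfate to N-acetylglucosamine of glycans and Atp2c1 pumps calcium and manganese into the lumen. Crtap works in the endoplasmic reticulum, in a complex with prolyl 3-hydroxylase 1 and cyclophilin B (Ppib) that modifies collagen chains. Glb1 is the lysosomal beta-galactosidase, which removes galactose from gangliosides and keratan sulfate and is held in a complex with Ctsa and Neu1. Abhd14b is a small alpha/beta hydrolase with reported lysine deacetylase activity. Nxpe4 belongs to a family named for its likeness to the neurexophilins, and its role in microglia is not established.

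The genes are spread over most of the chromosome, and only 2 pairs are close. In mm10 coordinates, Nxpe4 spans chr9:48162004-48400025 on the plus strand, Chst2 chr9:95400926-95407270 on the minus strand, Atp2c1 chr9:105411362-105521257 on the minus strand and Abhd14b chr9:106447737-106452923 on the plus strand. Crtap (chr9:114375131-114390712, minus strand) and Glb1 (chr9:114401078-114474379, plus strand) are neighbours that are transcribed away from each other, with starts 10366 bases apart. The GENCODE annotation places other genes on top of several members, and whether the reads were counted by strand is not stated. Nxpe2 lies on the opposite strand within the Nxpe4 span, and by its GENCODE span Aste1 overlaps Atp2c1 by 8691 bases on the opposite strand. By the GENCODE spans Abhd14a overlaps the start of Abhd14b by 220 bases. RefSeq, the source of the coordinates above, has other spans for these genes. There Aste1 lies 3063 bases from Atp2c1 without overlap, and Abhd14a reaches chr9:106451203, well inside Abhd14b. Tmppe lies within Glb1 on the same strand. Reads of such pairs could be assigned to either gene where exons overlap.

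The 250 bases before a RefSeq transcript start of Abhd14b, Crtap and Glb1 are printed here. Abhd14b had the largest difference of the 6 at 7 months, and Crtap and Glb1 are adjacent but differed in opposite directions. For Abhd14b the transcript start used is chr9:106448640, which lies inside the span given above. Its window is therefore not the stretch before the whole span. Sequences are from RefSeq on GRCm38.p6 (the same assembly as mm10), 5′ to 3′ on the strand of the gene. Capitals mark matches on either strand to 5 motifs, namely the E-box as CACGTG, the GC box as GGGCGG, the CAAT box as CCAAT, the TATA box as TATAAA and the core bound by PU.1, a transcription factor of myeloid cells, as GAGGAA.
Abhd14b, chr9:106448390-106448639, plus strand: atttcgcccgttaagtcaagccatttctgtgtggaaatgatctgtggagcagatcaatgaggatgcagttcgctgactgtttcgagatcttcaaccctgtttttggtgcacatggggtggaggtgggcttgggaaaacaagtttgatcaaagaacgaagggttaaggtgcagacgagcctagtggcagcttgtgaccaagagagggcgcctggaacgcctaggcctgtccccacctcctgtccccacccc
Crtap, chr9:114390713-114390962, minus strand: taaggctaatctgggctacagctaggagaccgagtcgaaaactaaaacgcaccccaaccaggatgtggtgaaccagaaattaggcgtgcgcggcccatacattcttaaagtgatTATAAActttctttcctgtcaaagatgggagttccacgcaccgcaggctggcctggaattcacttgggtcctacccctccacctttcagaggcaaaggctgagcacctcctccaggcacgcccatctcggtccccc
Glb1, chr9:114400828-114401077, plus strand: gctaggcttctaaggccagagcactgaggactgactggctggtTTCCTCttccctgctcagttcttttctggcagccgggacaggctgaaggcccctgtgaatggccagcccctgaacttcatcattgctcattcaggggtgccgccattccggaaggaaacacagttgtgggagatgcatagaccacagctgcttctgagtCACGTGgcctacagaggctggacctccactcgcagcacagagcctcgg
The Abhd14b window held none of the 5 motifs. The Crtap window held TATAAA 136 bases before the start, far from the usual place of a TATA box, and the Glb1 window held CACGTG at 48 bases and the reverse complement of GAGGAA at 207 bases before the start. Among 32851 RefSeq promoter windows of this length, 6.02% held CACGTG, 12.4% TATAAA and 23.3% GAGGAA. No motif was shared between the Crtap and Glb1 windows. The windows held 8, 10 and 6 CpG dinucleotides, against a median of 6 over all windows, whereas the Chst2 window held 27 and the windows at the alternative starts of Atp2c1 held 7 and 28. The Nxpe4 window also held a CACGTG, at 148 bases before the start, and had 1 CpG. It lies before a transcript start at chr9:48362041, inside the Nxpe4 span.

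The 6 genes differed widely in level. Per kilobase of annotated exon, wild-type mice at 7 months had 1357 ± 228 normalized counts of Crtap (SD, n = 4), 1135 ± 75.7 of Glb1 and 1086 ± 95.7 of Atp2c1, 51.5 ± 3.44 of Chst2, 26.6 ± 15.6 of Nxpe4 and 24.4 ± 5.39 of Abhd14b. The ranges of Crtap, Glb1 and Atp2c1 overlapped among these mice, as did those of Nxpe4 and Abhd14b, so the order within each of these sets is not larger than the spread. At 10 months Nxpe4 was the lowest of the 6 in wild-type mice, at 1.98 ± 0.643 per kilobase (n = 5), below every value of Abhd14b (11.6 to 26.1).

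**Figure D1:**
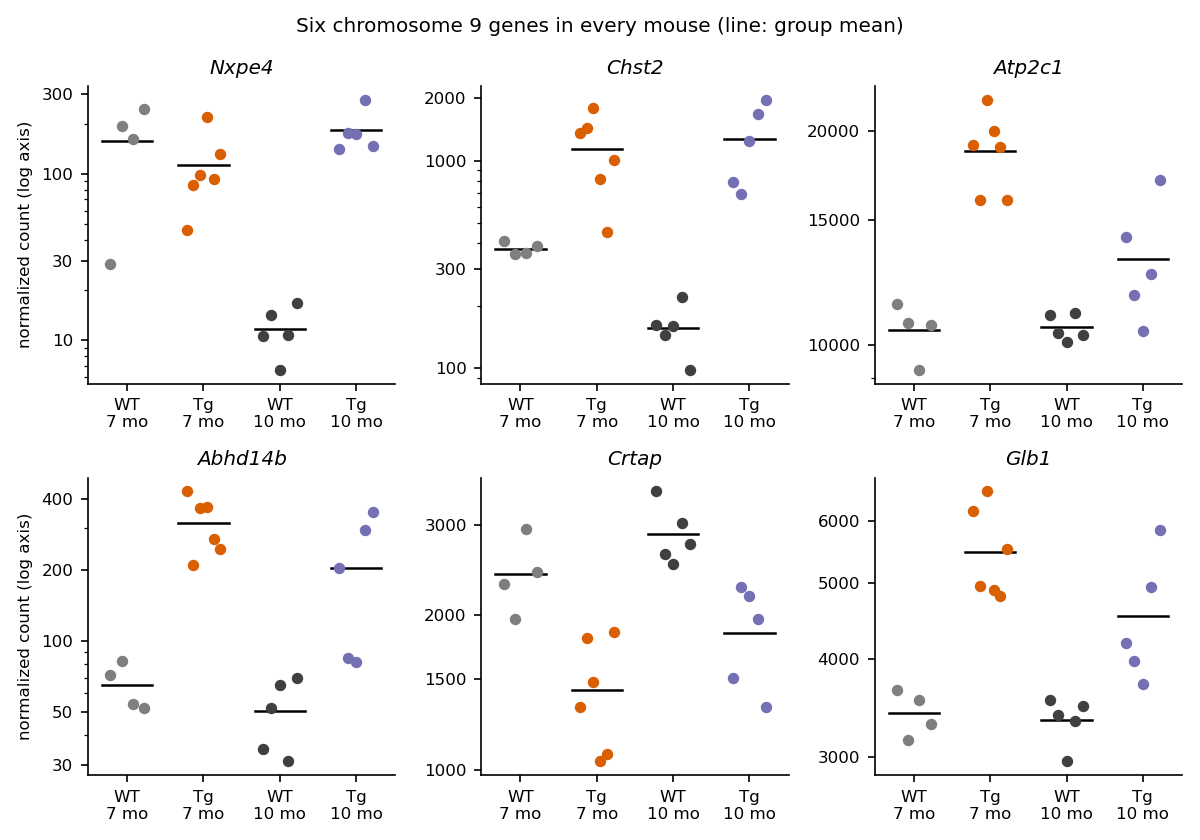
Normalized counts (log axis) of the 6 genes in each mouse, with wild-type (WT) and mThy1-α-synuclein (Tg) mice at 7 and 10 months on the horizontal axis. Points are mice in the order of their replicate numbers and lines are group means. The 5 wild-type mice of 10 months lie far below the other groups for Nxpe4, between 6.60 and 16.6.

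Nxpe4 separated the genotypes at 10 months and not at 7 months. At 7 months the 4 wild-type mice had 28.8, 193, 162 and 245 normalized counts, and the 6 mThy1-α-synuclein mice had between 45.9 and 219 with a median of 95.6. All 6 transgenic values lay inside the wild-type range, which replicate 1 widened downward. At 10 months the wild-type mice had 10.6, 14.1, 6.60, 10.8 and 16.6 and the mThy1-α-synuclein mice 141, 175, 172, 280 and 148. The transgenic mice of 10 months lay within the range of values seen at 7 months except for replicate 4, which was above it, whereas all wild-type mice of 10 months lay below both 7-month groups. Only 7 to 24 reads lay behind each wild-type value at 10 months. The log2 fold change, fitted on log2(value + 1), was -0.28 (SE 0.60) at 7 months and 3.86 (SE 0.30) at 10 months, or 15.6 times as much in the means at 10 months (183 ± 56.1 against 11.7 ± 3.8, SD, n = 5 and 5).

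Chst2 was higher in every mThy1-α-synuclein mouse at both ages, and at 7 months the transgenic mice varied far more than their controls. Wild-type mice of 7 months had 409, 357, 358 and 387 normalized counts. The 6 transgenic mice ran from 456 through a median of 1187 to 1797, a range of 3.94 times against 1.15 times in the wild type. At 10 months the wild-type mice had 161, 145, 159, 220 and 98.2, all below the lowest wild-type mouse of 7 months, and the mThy1-α-synuclein mice had 789, 694, 1247, 1686 and 1977, so that the ranges there were 2.25 and 2.85 times. The mean ratio was 3.03 at 7 months (log2 fold change 1.47, SE 0.34) and 8.16 at 10 months (2.95, SE 0.31). The means of the transgenic groups were alike at both ages (1146 ± 482, n = 6, and 1279 ± 556, n = 5), while the wild-type mean was 378 ± 25.2 (n = 4) at 7 months and 157 ± 43.7 (n = 5) at 10 months. Values of different ages carry separate size factors, so they stand side by side here without a test.

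Atp2c1, the most strongly counted of the 6, showed a wide gap at 7 months that narrowed at 10 months. Wild-type mice of 7 months had 11441, 10743, 9233 and 10681 normalized counts, and the transgenic mice lay between 16007 and 22161 (median 19080). At 10 months the wild-type mice had 11039, 10418, 10114, 11099 and 10327, whereas the mThy1-α-synuclein mice had 14205, 11782, 10480, 12608 and 17058. Transgenic replicate 3 fell within the wild-type range and replicate 2 lay just above it, while replicate 5 was inside the range of transgenic mice of 7 months. The log2 fold change was 0.83 (SE 0.096) at 7 months and 0.30 (SE 0.10) at 10 months.

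Abhd14b had low counts and the largest difference of the 6 genes at 7 months. In wild-type mice of 7 months the values were 71.9, 82.1, 54.3 and 52.1, and the transgenic mice had from 210 to 431 (median 317). Wild-type mice of 10 months had 34.9, 52.1, 65.0, 30.9 and 69.8, and the mThy1-α-synuclein mice 204, 84.6, 81.3, 296 and 352. The transgenic mice of 10 months thus fell in separate places, with replicates 2 and 3 only a little above the highest wild-type mouse and replicates 1, 4 and 5 near or within the range of transgenic mice of 7 months. The mean ratio was 4.84 at 7 months (log2 fold change 2.24, SE 0.23) and 4.03 at 10 months (1.81, SE 0.42). The SD of log2 values among transgenic mice of 10 months was 0.99, against a median of 0.18 over all genes tested in that group.

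Crtap was the only one of the 6 that was lower in mThy1-α-synuclein mice at both ages. Wild-type mice of 7 months had 2295, 1963, 2937 and 2425 normalized counts and the transgenic mice 1037 to 1858 (median 1402). Wild-type mice of 10 months had 3488, 2631, 2512, 3028 and 2756, and the mThy1-α-synuclein mice 1506, 2267, 2175, 1969 and 1322. The groups did not overlap at either age, and the transgenic mice nearest to the wild type at 10 months were again replicates 2 and 3. The log2 fold change was -0.77 (SE 0.18) at 7 months and -0.66 (SE 0.15) at 10 months.

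Glb1, the neighbour of Crtap, was higher in every mThy1-α-synuclein mouse. Its values in wild-type mice were 3653, 3152, 3550 and 3308 at 7 months and 3546, 3391, 2958, 3331 and 3478 at 10 months. Transgenic mice had 4816 to 6561 (median 5241) at 7 months, and 4194, 3971, 3714, 4941 and 5853 at 10 months. The lowest transgenic mice of 10 months, replicates 3 and 2, were close to the highest wild-type mouse without overlapping it. The log2 fold change was 0.68 (SE 0.094) at 7 months and 0.42 (SE 0.11) at 10 months. Tmppe, which lies inside Glb1 on the same strand, had log2 fold changes of -0.17 and -0.03 with adjusted p = 0.459 and 0.907 (limma, Benjamini-Hochberg over all genes tested).

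Read as counts, 5 of the 6 genes passed the genome-wide limma test at 7 months (all except Nxpe4), where 4.93% of 13887 tested genes passed (2.23% higher, 2.7% lower), and 5 of 6 at 10 months (all except Atp2c1), where 7.67% of 13627 passed (3.88% higher, 3.79% lower). Groups did not overlap for the same 5 genes at each age, against 7.53% and 7.27% of tested genes. Because the choice of the genes rested on these contrasts, the counts describe the choice and no more. All 6 passed the filter on low values at both ages, Nxpe4 at 10 months through its transgenic mice.

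**Figure D2:**
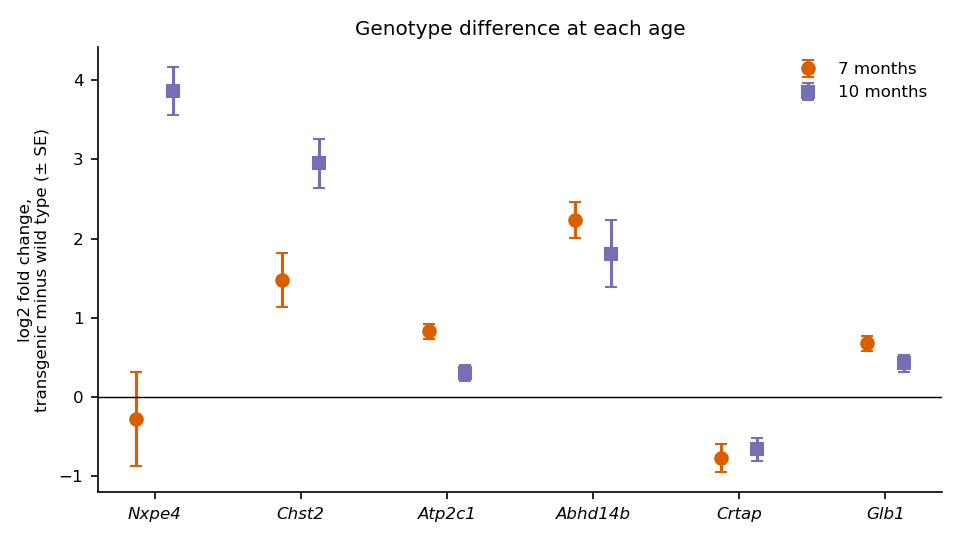
Log2 fold change between mThy1-α-synuclein and wild-type mice (vertical axis, with its standard error as bars) for the 6 genes at 7 months (circles) and 10 months (squares). Nxpe4 moves from -0.28 to 3.86 and Crtap stays below 0 at both ages.

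The difference between the ages was computed as an interaction, the genotype difference at 10 months minus that at 7 months, in 1 limma fit of all 20 mice. It is made of the same genotype differences by which the genes were chosen, so it is given as a description without a test. Over all genes tested, 6.36% had an adjusted p under 0.05 in this fit, and 2 of the 6 members, Nxpe4 and Atp2c1, were among them, from which nothing is read. The interaction was 4.14 (SE 0.65) on the log2 scale for Nxpe4, 1.48 (SE 0.49) for Chst2 and -0.53 (SE 0.15) for Atp2c1. For Abhd14b it was -0.43 (SE 0.50), for Crtap 0.11 (SE 0.25) and for Glb1 -0.25 (SE 0.15). Mice of both genotypes were processed together at each age, so age and the processing at that age cannot be told apart. Only an effect of processing that is alike in both genotypes drops out of the interaction.

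The genes beside the members were examined next, since the rule used only the members. Within 1 Mb of any member, 6 of 60 other tested genes (10.0%) passed at 7 months, against 4.93% of all tested genes. All 6 were higher in mThy1-α-synuclein mice, a direction in which 2.23% of all tested genes passed. At 10 months 4 of 59 (6.78%) passed, 2 higher and 2 lower, which is near the 7.67% over all genes. No gene other than a member passed at both ages within this distance. Over the whole stretch of chromosome 9 that spans the members, with the members left out, 28 of 447 genes (6.26%) passed at 7 months and 36 of 446 (8.07%) at 10 months, so the stretch as a whole lay near the share over all genes at both ages.

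Of the 6 neighbours that passed at 7 months, 5 lay beside Abhd14b. Measured from the start of Abhd14b, their centres lay between -223 and 25.9 kb. Dusp7, a phosphatase that inactivates ERK kinases, had 6788 ± 1476 normalized counts in transgenic mice (SD, n = 6) and 2560.2 ± 232 in wild-type mice (n = 4; log2 fold change 1.39, adjusted p = 0.000313). Rpl29, a protein of the large ribosomal subunit with many processed copies elsewhere in the genome, had 10368 ± 1950.0 and 4889.8 ± 744 (1.07, adjusted p = 0.00183). Parp3, a mono-ADP-ribosyltransferase of DNA repair, had 724 ± 129 and 381 ± 15.8 (0.91, adjusted p = 0.00183). Poc1a, a centriole protein, and Tlr9, the endosomal receptor for CpG DNA, had log2 fold changes of 0.96 (adjusted p = 0.0476) and 0.54 (adjusted p = 0.00424). Parp3, Poc1a and Tlr9 were named after their values were seen. In all 5 genes every transgenic mouse of 7 months lay above every wild-type mouse.

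Farther from Abhd14b but within 1 Mb, Manf and Mapkapk3 passed at 10 months, both lower in transgenic mice. Their log2 fold changes there were -0.53 (adjusted p = 0.0160) and -0.38 (adjusted p = 0.0115), and neither passed at 7 months. They were named after their values were seen. Abhd14a, Acy1 and Pcbp4, which lie closest to Abhd14b, did not pass at either age. Abhd14a, which overlaps the start of Abhd14b, had log2 fold changes of 0.20 at 7 months and 0.42 at 10 months (adjusted p = 0.595 and 0.146). Acy1, an aminoacylase gene centred at -12.1 kb from the Abhd14b start, had -0.35 and -0.11 (adjusted p = 0.146 and 0.628). Pcbp4, centred 10.8 kb after it, had 0.62 and 1.34 (adjusted p = 0.255 and 0.0626). Aste1, which overlaps Atp2c1 in GENCODE but not in RefSeq, had 0.08 and 0.15 (adjusted p = 0.834 and 0.689). Nxpe2 had 10.9 ± 8.33 and 17.9 ± 15.3 normalized counts in transgenic and wild-type mice of 7 months, means far under those of Nxpe4. At 10 months it had 10.5 ± 5.64 and 13.9 ± 10.4. The wild-type mean was there near that of Nxpe4 (11.7 ± 3.80). Whether the 2 genes share reads was not tested. Neither Nxpe2 nor Rexo2, the next gene, passed at either age. U2surp and Slc9a9, the nearest genes to Chst2, and 4930520O04Rik, which overlaps Crtap, did not pass at either age.

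**Figure D3:**
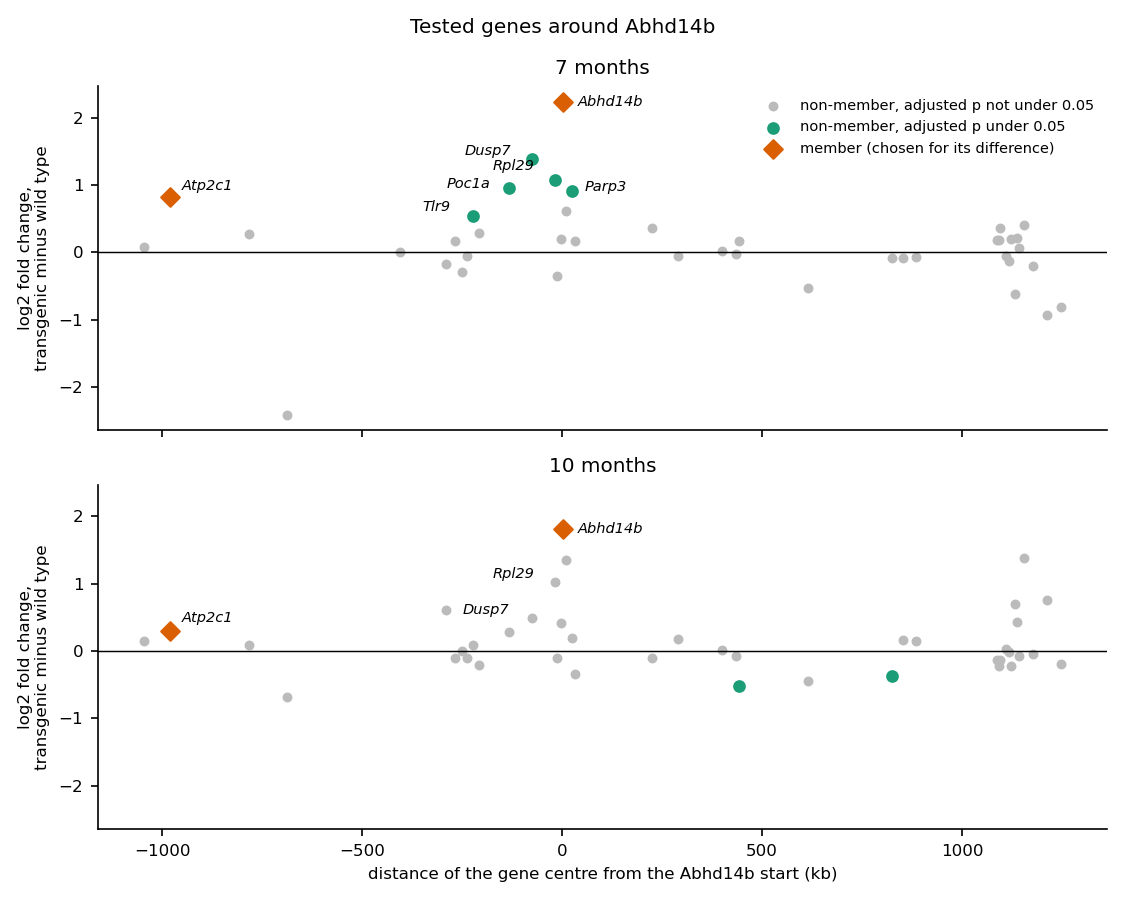
Log2 fold change between mThy1-α-synuclein and wild-type mice (vertical axis) of tested genes against the distance of their centre from the start of Abhd14b in kilobases (horizontal axis), at 7 months (upper) and 10 months (lower). Green points had an adjusted p under 0.05 and orange diamonds are Atp2c1 and Abhd14b, which were chosen for their difference. At 7 months 5 genes beside Abhd14b stand above 0, from 0.54 to 1.39.

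At 10 months the same 5 neighbours did not pass with limma (1 had an unadjusted p under 0.05, and edgeR called 0 and DESeq2 1 of them), and some transgenic mice lay at the wild-type level. Dusp7 had 4629, 2920, 2541, 4148 and 7171 normalized counts in mThy1-α-synuclein replicates 1 to 5, against 2684 to 2897 in wild-type mice. Replicates 2 and 3 lay at the wild-type level, and replicate 5 lay within the range of transgenic mice of 7 months (5406 to 9419). Rpl29 had 7717, 4706, 3836, 9984 and 12251 against 2985 to 3906, with the same mice at the low end (log2 fold change 1.02, SE 0.31, adjusted p = 0.0801). Among Atp2c1, Abhd14b, Glb1 and the 5 neighbours, replicate 5 was the highest transgenic mouse in 8 of 8 genes and replicates 2 and 3 were the lowest pair in 7 of 8. This set leaves out the members with another order, so its counts describe the choice of genes. How often this order occurs over all tested genes was not counted, so it is not shown to be particular to this region. Crtap had the reverse order at its ends, with replicate 2 highest and replicate 5 lowest. Nxpe4 and Chst2 did not follow this order, since replicates 2 and 3 had 175 and 172 normalized counts of Nxpe4 and Chst2, although highest in replicate 5 and lowest in replicate 2, had more in replicate 3 than in replicate 1.

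Thy1 had 1117, 1463, 1741, 1197 and 1595 normalized counts in transgenic replicates 1 to 5 of 10 months. Of the 9 cell type marker lists, the summed level was highest in replicate 5 for 3 (microglia, neutrophils and monocytes, lymphocytes) and lowest in it for 3 (neurons, oligodendrocytes, endothelial and mural cells). Replicates 2 and 3 were the lowest pair for 1 list, that of fibroblasts and leptomeningeal cells, with 299 and 368 against 636, 830 and 706 in replicates 1, 4 and 5. Summed microglia markers ran from 1997490 in replicate 1 to 2223520 in replicate 5. The part of these cells in the order of the mice was not tested.

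**Figure D4:**
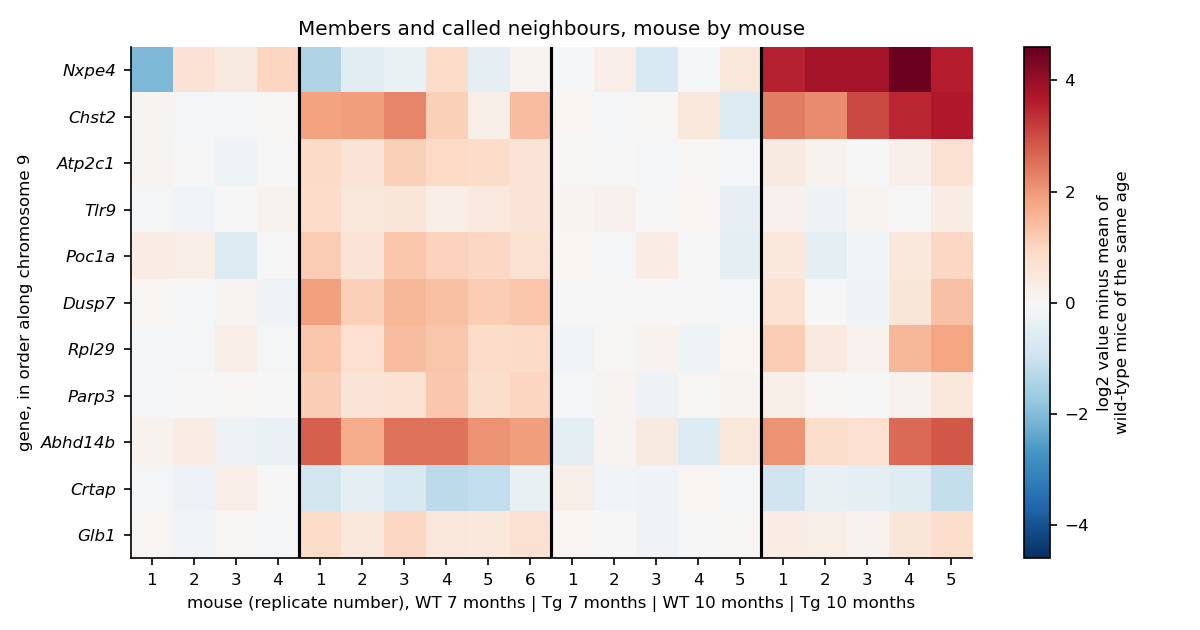
Difference of log2 values from the mean of wild-type mice of the same age (colour scale) for the 6 genes and the 5 neighbours of Abhd14b that passed at 7 months, in order along the chromosome (rows), in each mouse (columns, by replicate number). At 10 months transgenic replicates 2 and 3 are paler than the other transgenic mice for most genes from Atp2c1 to Abhd14b, where Abhd14b has 0.80 and 0.75 against 2.85 in replicate 5.

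Variation among mice of the same genotype and age was not used to choose the genes. Log2 values were centred on the mean of each group, and the 15 pairs of members were correlated over the 20 mice, with p-values from 100000 permutations within groups. Crtap varied opposite to Abhd14b, with Pearson's r = -0.66 (permutation p = 0.00742, adjusted p = 0.0664) and Spearman's rho = -0.64 (p = 0.00804, adjusted 0.121), and r = -0.59 without the 2 mice farthest from the median. It varied opposite to Atp2c1 likewise (r = -0.68, permutation p = 0.00885, adjusted 0.0664, rho = -0.60, p = 0.0209, adjusted 0.155, and r = -0.58 without 2 mice). Both relations had the same sign at each age, with r from -0.78 to -0.61. Atp2c1 and Abhd14b varied in the same direction among mice with r = 0.63 (permutation p = 0.0245, adjusted 0.0934, rho = 0.43, p = 0.114, adjusted 0.285), a value that was 0.37 without transgenic replicates 5 and 3 of 10 months and so rests in part on them. Before adjustment 6 of the 15 pairs had a permutation p under 0.05 by Pearson's r and 3 by Spearman's rho, and after it none did.

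For the adjacent genes Crtap and Glb1, which differed in opposite directions between genotypes, no relation within groups was seen over the 20 mice. Their r was -0.08 (permutation p = 0.798, adjusted 0.855, rho = 0.03, p = 0.929, adjusted 0.977), with 0.35 at 7 months and -0.47 at 10 months. The sign differed by age, and so few mice cannot exclude a relation at either age. Glb1 had positive correlations of like size with 3 other members, none of which passed the adjustment. With Chst2, 19.0 Mb away, r was 0.60 (permutation p = 0.0302, adjusted 0.0934, rho = 0.57, p = 0.0309, adjusted 0.155, and r = 0.53 without 2 mice). With Atp2c1 r was 0.63 (permutation p = 0.0311, adjusted 0.0934, rho = 0.49, p = 0.0707, adjusted 0.219), and 0.33 without transgenic replicates 5 and 3 of 10 months, so it rests in part on them. With Abhd14b r was 0.59 (permutation p = 0.0443, adjusted 0.111, rho = 0.49, p = 0.0731, adjusted 0.219, and r = 0.45 without 2 mice). For Nxpe4 no relation to another member was seen over the 20 mice, with r between -0.19 and 0.03. Its r with Glb1 differed in sign by age, with -0.47 at 7 months and 0.27 at 10 months.

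**Figure D5:**
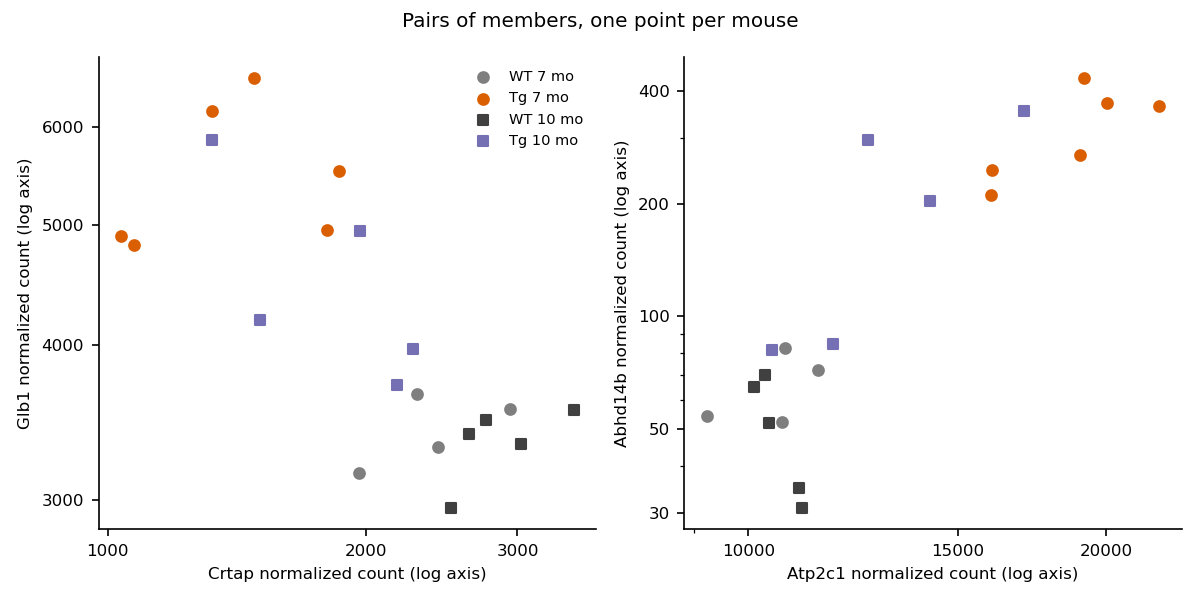
Normalized counts (log axes) of Glb1 against Crtap (left) and of Abhd14b against Atp2c1 (right), 1 point per mouse, with wild-type (WT) and mThy1-α-synuclein (Tg) mice at 7 and 10 months. Transgenic mice have less Crtap and more Glb1 than wild-type mice of their age, and transgenic replicates 2 and 3 of 10 months, at 84.6 and 81.3 Abhd14b counts, lie beside the wild-type points on the right.

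Over 14456 other genes, those whose within-group variation was most like that of a member are named as a description, since all 20 mice share library and depth effects. For Abhd14b they were Rpl29 (r = 0.88), Cish (0.82) and Ugt1a7c (0.79). Rpl29 and Cish, a suppressor of cytokine signaling, both lie within 1 Mb of Abhd14b, yet Cish had log2 fold changes of only -0.08 and 0.17 between the genotypes. For Atp2c1 they were Poc1a (0.81), Zfp51 (0.80) and Itgae (0.76), and Poc1a lies within 1 Mb. Among the 50 genes most like Atp2c1, 11 (22%) were on chromosome 9, and among those most like Abhd14b 7 (14%), against 5.48% of all genes. Of these, 4 lay within 1 Mb of Atp2c1 and 5 within 1 Mb of Abhd14b. The shares for Nxpe4, Chst2 and Glb1 were 8%, 6% and 8%. For Crtap none of the 50 was on chromosome 9, and its leading genes were Ergic1 (0.80), Rpl7l1 (0.77) and Sccpdh (0.75). Glb1 went with Cd34 (0.91), Sptlc1, a subunit of serine palmitoyltransferase (0.87), and Slc9a9, an endosomal sodium and proton exchanger (0.83). Chst2 went with Clcn7 (0.85) and Cln3 (0.84), which encode lysosomal membrane proteins, and with the heparan sulfate enzyme Ndst2 (0.84). Nxpe4 went with Ece1 (0.81), Kcnq1 (0.79) and Fhdc1 (0.77), none on chromosome 9.

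Among non-members of the stretch of chromosome 9 between Nxpe4 and Glb1 that passed the test and whose groups did not overlap, the 5 with the largest differences at each age were a mixed group. At 7 months these were Cspg5 (-1.95) and Scg3 (-1.79), both best known from neurons and lower in transgenic mice as the neuronal markers were, Dusp7 and Rpl29 beside Abhd14b, and the chemokine receptor-like gene Ccrl2 (-1.10, adjusted p = 0.000945). At 10 months they were C920006O11Rik (4.36), 9330159M07Rik (2.44), Fam81a (1.4), Bco2 (1.19) and Cd276 (0.98, adjusted p = 0.000905). The first of these had a pattern over the groups like that of Nxpe4, with 47.6 ± 22.1 and 33.3 ± 12.9 normalized counts in transgenic and wild-type mice of 7 months and 38.8 ± 18.7 and 1.26 ± 1.74 at 10 months. The stretch of chromosome 9 that spans the members held 8 of 446 genes of this stretch that passed at each age (1.79%), against 0.734% of 13484 genes over the genome, and 4 of the 8 were members by their choice (Chst2, Abhd14b, Crtap and Glb1). The direction was the same at both ages in 6 of the 8. All 4 members are among these 6, so this count and the share of 1.79% rest in large part on their choice. No excess over the genome is read from that share. Of the non-members, Bckdhb (-0.70 and -0.74) and Ccrl2 (-1.10 and -0.62) were lower at both ages. Cd276 (-0.67 and 0.98) and Map4 (-0.36 and 0.30) were lower at 7 and higher at 10 months. Bckdhb and Map4 were named after their values were seen.

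The other genes of the members' pathways came from lists that left the members out. At 7 months 9 of 92 tested genes passed (9.78%, against 4.93% of all tested genes). All 9 were higher, a direction in which 2.23% of all tested genes passed. At 10 months 7 of 90 passed (7.78%, 4 higher and 3 lower, near the 7.67% over all genes). Median log2 fold changes were 0.14 and 0.01 against 0.00093 and -0.0026 over all genes. Among carbohydrate sulfotransferases, 3 of 23 rose at 7 months (against 2.23% of all genes higher), and at 10 months 2 of 22 rose and 1 fell (13.6%, against 7.67%). Chst1, the keratan sulfate galactose sulfotransferase, had 1617 ± 320 normalized counts in transgenic and 707 ± 140 in wild-type mice of 10 months (log2 fold change 1.19, adjusted p = 0.00147) and 0.02 at 7 months (adjusted p = 0.977). Papss1, which makes the sulfate donor, rose by 0.35 at 10 months (adjusted p = 0.0106), whereas Papss2 had -0.48 and -0.66 (adjusted p = 0.480 and 0.123).

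Among the 25 lysosomal glycosidases, sulfatases and their protectors, 3 passed at 7 months, all higher (12%, against 4.93% of all genes in either direction and 2.23% higher). At 10 months 2 rose and 1 fell (12%, against 7.67%). The partners of Glb1 did not pass at either age. Ctsa had log2 fold changes of 0.27 (SE 0.096) and 0.05 (SE 0.075), with adjusted p = 0.121 and 0.727. Neu1 had 0.20 (SE 0.094) and -0.22 (SE 0.093), with adjusted p = 0.235 and 0.163. Both thus pointed in the direction of Glb1 at 7 months, and Neu1 in the other direction at 10 months. Among genes of collagen hydroxylation and folding, 2 of 15 rose at 7 months (13.3%, against 4.93% of all genes in either direction and 2.23% higher). At 10 months 1 of 14 passed and was lower (7.14%, near the 7.67% of all genes in either direction, with 3.79% lower). That gene was P4ha1, a subunit of prolyl 4-hydroxylase, the single pathway gene that passed at both ages, with 0.46 at 7 months (adjusted p = 0.00248) and -0.75 at 10 months (adjusted p = 0.00217). The partners of Crtap, Lepre1 (prolyl 3-hydroxylase 1) and Ppib, had log2 fold changes between -0.12 and 0.09 and did not pass at either age.

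None of the 9 tested calcium and manganese pumps and transporters passed with limma at either age, where 3 had an unadjusted p under 0.05 at each age, edgeR called 0 and 1 and DESeq2 2 and 2. Tmem165, a Golgi manganese transporter, had 0.16 and -0.14 (adjusted p = 0.336 and 0.295), and Atp2c2, the paralog of Atp2c1, had no more than a trace in any group and was not tested. Of the alpha/beta hydrolase domain genes 1 of 17 rose at 7 months (5.88%, near the 4.93% of all genes in either direction, with 2.23% higher). At 10 months none of them passed with limma, edgeR or DESeq2 (2 had an unadjusted p under 0.05). None of the 3 tested neurexophilin and Nxpe genes passed with limma, edgeR or DESeq2 at either age (unadjusted p was under 0.05 for 1 of them at 7 months and 0 at 10 months), and Nxpe3, the most counted of them, had 0.42 and 0.21 (adjusted p = 0.0965 and 0.347).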

How the data were processed

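RNA of microglia from 20 mice was analysed. Per the labels and methods, the authors trimmed reads with Trim Galore 0.6.7, mapped them to mm10 with HISAT2 2.2.1, counted them per gene with featureCounts and normalized with DESeq2 1.44.0. The annotation, strand setting and treatment of reads at several places are not given in the sources used here. The deposited signal values are gene counts divided by a size factor per mouse. They were whole multiples of 1 step per mouse (tolerance 0.01, 100% of values), and the steps equalled size factors computed within each age, so whole reads were recovered. In mThy1-α-synuclein replicate 5 of 10 months the step was too close to 1 for this check.

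Members and gene lists were chosen with earlier results of these data known. Genes were tested when their value reached 10 in at least 4 mice (7 months, and the interaction) or 5 mice (10 months). limma 3.58.1 (trend, robust) was fitted to log2(value + 1) over all such genes, with Benjamini-Hochberg adjustment at 0.05. Fold changes are on this scale and understate those of low genes. The plan gave correlations no test, and their permutation p-values were added later. No replicate is stated to be technical, and each is 1 mouse. Positions are from RefSeq on GRCm38.p6 (99.6% of tested genes), and exon lengths and the overlaps of other genes with members from GENCODE vM21. Named genes were the members, their 2 nearest neighbours, neighbours passing at both ages, the 5 largest non-members on the stretch at each age, the 3 most similar genes, and pathway genes passing at both ages or partnering a member. Alternatives were pseudocounts of 0.5 and 5, no filter, TMM scaling, edgeR 4.0.16 and DESeq2 1.42.0 on recovered reads, joint size factors, windows of 0.5 and 2 Mb, a replicate block and each mouse left out. Scripts were tested on simulated data. R 4.3.3 and Python 3.11.15 were used.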

Additional observations from a re-analysis of the deposited data

Results flagged for a closer look

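Fitted over all genes, the interaction of genotype and age came out beyond the threshold for 2 members, Nxpe4 with 4.14 and Atp2c1 with -0.53 on the log2 scale. Both were chosen by their genotype difference in these mice, Nxpe4 being called at 10 months alone and Atp2c1 at 7 months alone, so these interactions describe that choice and are no independent test of a change with age. For Nxpe4 every transgenic mouse was above every wild-type mouse at 10 months (5 of 5) and all 6 were inside the wild-type range at 7 months. For Atp2c1 6 of 6 transgenic mice were above the wild type at 7 months and 4 of 5 at 10 months, and the interaction lost its call without 11 of the 20 mice. Within the mThy1-α-synuclein mice of 10 months, Nxpe4 in replicate 4 stood apart at 280 normalized counts, with a gap to the next mouse of 0.754 of the group's range against a critical value of 0.710. Of 24 groups of members examined in this way it was the only one, and chance alone flags about 1 in 20.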

How the results depend on the processing

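All 204 alternative values of the members' log2 fold changes kept the direction of every called difference. The interactions share the contrasts that chose the members, so their side of the threshold describes the fit alone. Of these values 155 kept their side of the threshold, 12 lost the call and 1 gained it. The Chst2 interaction passed with DESeq2 (1.44, adjusted p = 0.0389). Leaving out 1 mouse moved the Atp2c1 interaction between -0.62 and -0.45, and its call was lost without 11 of the 20 mice, with adjusted p from 0.0507 to 0.0799. Correlations of same-numbered mice lay between -0.134 and 0.0995, which shows no sign of pairing by replicate number but cannot exclude it. With a replicate block the Atp2c1 interaction was -0.57 (adjusted p = 0.0564). The count over the stretch of chromosome 9 that spans the members was then 19 instead of 33 at 7 months. With this block, neighbours within 1 Mb at 10 months were 2 instead of 4 and pathway genes at 7 months 5 instead of 9. With DESeq2, 67 instead of 41 genes of this stretch passed at 10 months, and 17 and 11 pathway genes at 7 and 10 months. Over all genes DESeq2 called 1159 and 1677. Within 0.5 Mb, 2 neighbours passed at 10 months. Leaving out 1 mouse gave 12 to 34 genes of this stretch at 7 months (12, 21 and 18 without wild-type replicates 1, 2 and 3) and 21 to 48 at 10 months (25, 26 and 25 without transgenic replicates 1, 3 and 5, and 25, 21 and 26 without wild-type replicates 1, 2 and 5). It gave 2 to 5 neighbours at 10 months (2 without transgenic replicates 1 or 5 or wild-type replicates 1 or 3), 3 to 7 pathway genes at 10 months (3 without transgenic replicate 5 or wild-type replicate 3, 4 without wild-type replicate 2) and 2 to 16 at 7 months (2 without wild-type replicate 1, 4 without wild-type replicate 3, 5 without transgenic replicates 2 or 3 or wild-type replicates 2 or 4, and 16 without transgenic replicate 4). The cause of these changes was not tested. The median log2 fold change of all genes moved by less than 0.1 under every scaling. Low reads limit Nxpe4 in wild-type mice of 10 months and Abhd14b in all wild-type mice.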
